A study of Mus musculus with 4 samples.

Results

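The galectin and annexin genes examined here are Lgals1, Lgals3 and Lgals9 together with Anxa1, Anxa2, Anxa3, Anxa4 and Anxa5, 8 of the 16308 genes measured, and they are defined as a list of symbols with no threshold on a measured value. Galectins are secreted lectins without a signal peptide that bind β-galactoside sugars on glycoproteins and thereby cross-link receptors on leukocytes. Annexins bind acidic phospholipids of membranes when calcium rises, and several of them act outside the cell as well. Both families are known in inflamed tissue for limiting neutrophil entry, for the clearance of dying cells and for membrane repair.

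The study profiled CD45+ leukocytes sorted from the muscularis externa of the small intestine, the muscle coat that holds the enteric nerve plexus, in female mice of 12 weeks. All animals had undergone intestinal manipulation, a surgical handling of the gut that injures the muscularis, so no uninjured group enters any comparison here. The WT group was C57BL/6J, the CCR2-/- group was Ccr2-/-; B6.129S4-Ccr2tm1Ifc/J, and each was sampled 24 h and 72 h post-injury. CCR2 is the chemokine receptor with which monocytes leave the bone marrow, and the allele is carried by every cell of the animal, not only by leukocytes. There was 1 library for each of the 4 groups, made from cells pooled from several animals, so that differences between groups have no replicate check, no test was possible, and every interval below is an exact 95% interval for counting error only.

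The 4 libraries held 1674 cells (WT, 24 h), 1774 cells (CCR2-/-, 24 h), 1315 cells (WT, 72 h) and 1048 cells (CCR2-/-, 72 h), with median depths from 3281.5 to 12859 unique molecular identifiers (UMIs) per cell. Ccr2 stood at 720 and 923 counts per 1000000 UMIs (CPM) in the WT libraries and at 47.3 and 53.7 in the CCR2-/- libraries. 4 cell barcodes occurred in a pair of libraries. 11 cells with non-immune markers and no Ptprc, the gene of CD45, were set aside, leaving 5800 cells. These were grouped into 17 clusters and named by markers of each leukocyte class: 2510 monocyte- and macrophage-like cells (Mφ-like below), 1907 neutrophil-like, 410 dendritic-like, 166 T-like, 86 NK-like, 74 B-like and 48 innate lymphoid-like cells. A cluster of 520 cells led by Siglecf, Rcan1 and Egr2 and another of 79 cells led by Calca kept those gene names, since their leading genes did not match a marker list well enough. Levels are UMIs of the gene per 1000000 UMIs of the class in 1 library (CPM).

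The genes lie on 8 different chromosomes of GRCm38: Lgals1 at chr15:78926725-78930465 (plus strand), Lgals3 at chr14:47367751-47386160 (plus), Lgals9 at chr11:78962974-78984946 (minus), Anxa1 at chr19:20373428-20390944 (minus), Anxa2 at chr9:69453620-69491795 (plus), Anxa3 at chr5:96793339-96845966 (plus), Anxa4 at chr6:86736840-86793584 (minus) and Anxa5 at chr3:36448923-36475894 (minus). RefSeq promoter sequence of the GRCm38.p6 assembly was matched for 6 of the 8. The windows of Anxa2, which had the widest range by fold among kinds of Mφ-like cells, and of Lgals3 and Anxa4, which were past 2-fold between the times in CCR2-/- Mφ-like cells, are printed below, 180 bases each, from 250 to 71 bases before the RefSeq start, 5′ to 3′ on the strand of the gene. None of the 3 overlapped an annotated exon. The Lgals3 window lay inside the gene span given above, before a RefSeq start downstream of where that span begins. Capitals mark a GC box (GGGCGG) and an AP-1 motif (TGACTCA, read here on the opposite strand as TGAGTCA) in Anxa2, and a CCAAT box (read as ATTGG) in Lgals3; Anxa4 held none of the motifs searched.
Anxa2 chr9:69453433-69453612 (plus): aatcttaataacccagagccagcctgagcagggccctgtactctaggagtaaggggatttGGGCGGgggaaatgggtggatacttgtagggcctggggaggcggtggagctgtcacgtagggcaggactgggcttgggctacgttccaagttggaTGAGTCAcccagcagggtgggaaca
Lgals3 chr14:47373610-47373789 (plus): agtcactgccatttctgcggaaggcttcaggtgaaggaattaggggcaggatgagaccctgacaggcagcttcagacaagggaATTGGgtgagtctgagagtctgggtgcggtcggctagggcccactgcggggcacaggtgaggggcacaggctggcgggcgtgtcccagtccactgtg
Anxa4 chr6:86793655-86793834 (minus): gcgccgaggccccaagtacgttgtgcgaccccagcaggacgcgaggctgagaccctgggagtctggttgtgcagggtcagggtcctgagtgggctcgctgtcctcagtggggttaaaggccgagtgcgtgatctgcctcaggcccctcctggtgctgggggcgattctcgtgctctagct
Each of 5 motifs was searched on both strands, and none of them holds another. Among 32851 mouse promoter windows of the same length and place, the TATA box (TATAAA) was found in 8.37%, the CCAAT box in 25%, the GC box in 21.1%, the AP-1 motif in 3.13% and a binding motif of PU.1 (GAGGAAGT) in 1.53%. The AP-1 letters in Anxa2 were thus the rarest match among these 3 windows. GC content was 58.3% for Anxa2, 61.7% for Lgals3 and 65.6% for the printed window of Anxa4, all above the median of 51.1%. Another Anxa4 window, at chr6:86775185-86775364 (minus) and not printed, had 42.8%, below that median. A match of letters is a description of the sequence and says nothing about whether a factor binds there.

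The first question was which leukocytes carried each gene. Lgals1, Anxa4 and Anxa5 were genes of Mφ-like and dendritic-like cells and were low in neutrophil-like cells in all 4 libraries. Anxa1 and Anxa2 were instead higher in neutrophil-like than in Mφ-like cells in each library. Lgals3, Lgals9 and Anxa3 were found in both. Lgals1 was also high in T-like and NK-like cells, and Anxa5 was also found in innate lymphoid-like cells.

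Lgals1 encodes galectin-1, a lectin known for dampening T cell and neutrophil responses. In Mφ-like cells it stood at 1394 CPM (interval 1377 to 1410) in WT and 1057 (1024 to 1091) in CCR2-/- mice at 24 h; at 72 h it stood at 676 (661 to 691) and 959 (917 to 1002). In neutrophil-like cells only 8, 21, 3 and 3 UMIs were counted in the same order, that is 10.9, 5.13, 12.0 and 2.66 CPM. The ratio of Mφ-like over neutrophil-like cells was 128 (64.9 to 296), 206 (134 to 333), 56.4 (19.3 to 273) and 360 (123 to 1749), so the classes did not approach each other in any library. With every cell thinned to 1000 UMIs, 59.5%, 45.3%, 40.5% and 38.5% of Mφ-like cells held an Lgals1 UMI, against 1.79%, 0.783%, 2.33% and 0% of neutrophil-like cells. Unthinned, the shares were 94.5%, 80.8%, 89.2% and 79.6% against 2.68%, 1.55%, 3.45% and 1.32%. Median depth was 12695 to 15791 UMIs in Mφ-like and 2083 to 4685 in neutrophil-like cells. The neutrophil-like values are at a level that RNA free in the droplets can give and are not read as expression.

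T-like cells had 526 (364 to 735), 1037 (935 to 1146), 1659 (1499 to 1832) and 1489 (1402 to 1580) CPM of Lgals1 in the order WT and CCR2-/- at 24 h, WT and CCR2-/- at 72 h, from 12, 46, 31 and 77 cells. NK-like cells had 1200, 1330, 979 and 1180 CPM, from 5 to 35 cells. At 72 h the T-like level was above the Mφ-like level in both genotypes, with intervals that did not meet. Dendritic-like cells held 564, 554, 585 and 875 CPM, and B-like cells 33.5 to 358.

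Anxa5, which binds phosphatidylserine on dying cells, and Anxa4, a regulator of membrane traffic, followed the same division. In Mφ-like cells Anxa5 was at 506 (496 to 516), 604 (579 to 630), 462 (450 to 474) and 622 (588 to 657) CPM, and in neutrophil-like cells at 17.7, 17.8, 24.0 and 24.8 CPM. The Anxa5 ratio between the classes was therefore 28.6, 33.9, 19.2 and 25. Anxa4 was at 161, 239, 106 and 117 CPM in Mφ-like cells. In neutrophil-like cells 4, 33, 0 and 6 Anxa4 UMIs were counted, which gives a ratio of 29.6 at 24 h in either genotype, at least 8.83-fold in WT at 72 h (against a floor of 3 counts in that pool) and 21.9 in CCR2-/- at 72 h. Dendritic-like cells lay between the Mφ-like and neutrophil-like classes for both genes, with 264 to 317 CPM of Anxa5 and 67.2 to 118 CPM of Anxa4. The 48 innate lymphoid-like cells, libraries pooled, held 322 CPM of Anxa5 and 20.7 CPM of Anxa4.

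Anxa1, the glucocorticoid-regulated annexin that acts on formyl peptide receptors to limit neutrophil adhesion, was higher in the neutrophil-like than in the Mφ-like class. Neutrophil-like cells held 476 (428 to 529), 331 (314 to 350), 623 (529 to 729) and 761 (711 to 814) CPM, Mφ-like cells 196, 193, 164 and 181 CPM. Neutrophil-like cells were higher by 2.43 (2.17 to 2.71), 1.72 (1.57 to 1.89), 3.80 (3.20 to 4.47) and 4.20 times (3.71 to 4.75). T-like cells held 0 to 29.7 CPM and NK-like cells 63.3 to 211 CPM. Thinned to 1000 UMIs, Anxa1 was seen in 26.2%, 19.7%, 34.9% and 40.9% of neutrophil-like cells (39.8%, 38.6%, 57.5% and 64.8% unthinned), and in 0% to 6.52% of T-like cells, whose median depth was 4781.5 to 8713 UMIs.

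Anxa2 forms a complex with S100a10 that assembles plasminogen and its activators at the cell surface. It stood at 951 (882 to 1025), 894 (865 to 923), 1339 (1199 to 1490) and 1441 (1372 to 1513) CPM in neutrophil-like cells and at 590 (579 to 601), 409 (388 to 430), 411 (399 to 422) and 638 (604 to 673) in Mφ-like cells. The neutrophil-like level was 1.61, 2.19, 3.26 and 2.26 times the Mφ-like level. Its partner S100a10 went the other way, with 9.53, 13.2, 4.0 and 16.9 CPM in neutrophil-like cells against 850, 484, 465 and 585 CPM in Mφ-like cells. Neutrophil-like cells thus carried Anxa2 RNA with little RNA of that partner at this depth.

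Lgals3 encodes galectin-3, a lectin of phagocytes that gathers at damaged membranes. In Mφ-like cells it stood at 1691 (1673 to 1710), 2648 (2596 to 2702), 948 (931 to 965) and 951 (909 to 994) CPM, and in neutrophil-like cells at 521 (470 to 576), 811 (783 to 839), 839 (729 to 961) and 925 (870 to 983). The classes therefore differed 3.24-fold and 3.27-fold at 24 h and were close at 72 h, with ratios of 1.13 (0.986 to 1.30) and 1.03 (0.953 to 1.11). Dendritic-like cells held 2044, 2286, 1102 and 1206 CPM, above the Mφ-like value of the same library in all but the CCR2-/- library at 24 h.

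Lgals9, a galectin that binds Havcr2 (Tim-3), was at 191, 147, 114 and 154 CPM in Mφ-like cells and at 96.6, 87.2, 40.0 and 58.5 CPM in neutrophil-like cells, a ratio of 1.98, 1.69, 2.84 and 2.63. Anxa3, whose role in these cells is less settled, was at 287, 256, 330 and 283 CPM in Mφ-like cells and at 67.9 to 103 CPM in neutrophil-like cells. Anxa3 was the member with the narrowest spread of Mφ-like levels other than Anxa1, and it gave at most 2 UMIs in any pool of T-like or NK-like cells.

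**Figure D1:**
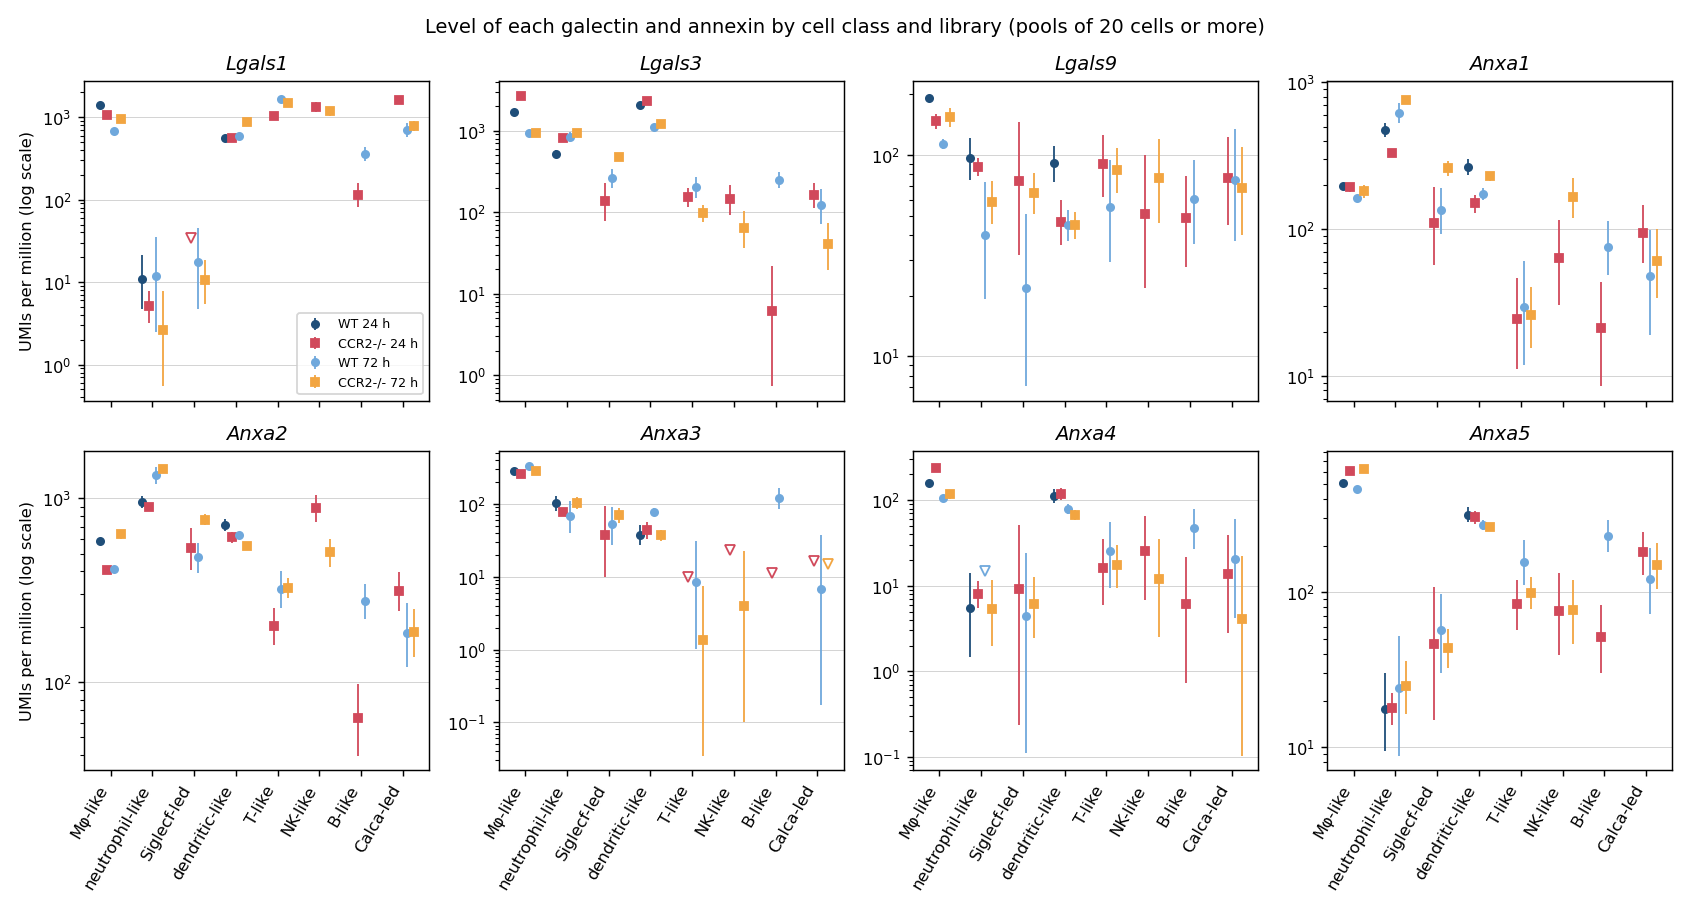
Level of each gene (CPM of the class, log scale) in each leukocyte class (x axis) and library (colours), with exact Poisson 95% intervals; pools under 20 cells are not drawn and open triangles give the upper limit where no UMI was counted. Lgals1, Anxa4 and Anxa5 are at least 19.2 times lower in neutrophil-like than in Mφ-like cells, apart from Anxa4 in WT at 72 h, where 0 UMIs give a bound of 8.83, while Anxa1 and Anxa2 are higher.

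Because of this division, values over all cells moved with the make-up of the libraries. Mφ-like cells were 76.3% of cells in WT and 12.4% in CCR2-/- mice at 24 h, and 65.9% and 14.1% at 72 h, while neutrophil-like cells were 17.9%, 73.2%, 6.62% and 21.8%. Over all cells at 24 h, Lgals1 had 1297 CPM in WT and 551 in CCR2-/- mice, a ratio of 0.425 (0.413 to 0.437), and Anxa3 had 265 and 126 CPM, a ratio of 0.475 (0.447 to 0.505). These were 2 of the 8 genes past 2-fold, where 15.8% of all genes tested were. For the weighted values, make-up means the share of UMIs in each class, not of cells. For Mφ-like cells this share was 90.6% in WT and 35.0% in CCR2-/- mice at 24 h. With each class weighted by its UMI share in WT, the ratios became 0.766 for Lgals1 and 0.892 for Anxa3. With the make-up alone changed they were 0.502 and 0.550. In such all-cell values, fewer cells of a type and less RNA per cell cannot be told apart.

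The direction of several members depended on the make-up. For Anxa4 and Anxa5 the all-cell ratio of CCR2-/- to WT at 24 h was 0.685 (0.639 to 0.734) and 0.572 (0.549 to 0.597), and with the WT make-up it was 1.47 and 1.19. Lgals3 was near even over all cells (0.941) and 1.54 with the WT make-up, while Anxa1 passed from 1.07 to 0.934 and Anxa2 from 1.01 to 0.718. Between the times no member was past 2-fold over all cells in either genotype, where 10.9% (WT) and 11.1% (CCR2-/-) of genes tested were. Lgals1 in WT lay at the line, with a ratio of 0.502 and an interval of 0.491 to 0.513. Between genotypes at 72 h 1 gene was past 2-fold over all cells, Anxa3, at 263 CPM in WT and 95.9 in CCR2-/- mice (ratio 0.365, 0.340 to 0.392; 12.4% of all genes tested were past 2-fold), and with the WT make-up the ratio was 0.835. Anxa5 again passed from 0.660 to 1.29, as did Lgals9 from 0.790 to 1.32 and Anxa4 from 0.585 to 1.05.

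The source of the RNA shifted accordingly. Mφ-like cells gave 97.4% of Lgals1 UMIs in WT at 24 h and 67.1% in CCR2-/- mice, and 77.1% and 28.5% at 72 h, when dendritic-like cells gave 47.9% in CCR2-/- mice. Neutrophil-like cells gave 7.95% of Anxa1 UMIs in WT at 24 h against 58.3% in CCR2-/- mice, and 5.60% against 34.6% at 72 h. For Anxa2 the neutrophil-like share was 5.45% and 57.4% at 24 h, and 4.39% and 25.7% at 72 h.

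The next comparison was between genotypes within Mφ-like cells. At 24 h Lgals3 and Anxa4 were higher in CCR2-/- mice and Anxa2, Lgals1 and Lgals9 lower, each by less than 2-fold. At 72 h Anxa2, Lgals1, Lgals9 and Anxa5 were higher in CCR2-/- mice, and Lgals3 was even. Anxa2, Lgals1 and Lgals9 thus lay below WT at 24 h and above WT at 72 h. Different clusters held the class in each library: cells led by Chil3 and Vcan (636) or by Ppbp and Ccl7 (525) in WT at 24 h, cells led by Ppbp (93), Chil3 (60) or Lilra5 and Mmp13 (52) in CCR2-/- at 24 h, cells led by Apoe and Gal (595) in WT at 72 h and cells led by Lilra5 (81) or Cxcl13 (35) in CCR2-/- at 72 h.

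None of the 8 genes was past 2-fold between genotypes in Mφ-like cells at either time, where 4.17% of genes tested at 24 h and 8.29% at 72 h were. At 24 h the ratio of CCR2-/- to WT was 1.57 (1.53 to 1.60) for Lgals3, 1.48 (1.38 to 1.60) for Anxa4, 1.19 (1.14 to 1.25) for Anxa5, 0.983 (0.906 to 1.07) for Anxa1, 0.892 (0.831 to 0.956) for Anxa3, 0.769 (0.701 to 0.842) for Lgals9, 0.758 (0.733 to 0.784) for Lgals1 and 0.693 (0.656 to 0.732) for Anxa2. After every cell was thinned to 1000 UMIs the log2 ratio of Anxa1 was -1.15 in place of -0.02, past 2-fold. The median log2 ratio of the 8 was -0.09, beside -0.07 over all genes tested. At 72 h the ratio was 1.55 (1.46 to 1.65) for Anxa2, 1.42 (1.35 to 1.49) for Lgals1, 1.36 (1.2 to 1.54) for Lgals9, 1.35 (1.27 to 1.43) for Anxa5, 1.1 for Anxa1 (0.986 to 1.23) and for Anxa4 (0.957 to 1.27), 1.0 (0.955 to 1.05) for Lgals3 and 0.858 (0.786 to 0.937) for Anxa3. The median was 0.29, beside 0.13 over all genes.

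Within single clusters the directions were not uniform. Among the cells led by Ppbp, Ccl7 and Pf4 at 24 h, CCR2-/- cells were above WT in Lgals3 (4059 against 2271 CPM, ratio 1.79, 1.74 to 1.84), Anxa4 (388 against 225, 1.72) and Anxa1 (357 against 212, 1.68) and below it in Lgals1 (1569 against 2000, 0.784). Among the cells led by Chil3, Vcan and Ms4a4c, CCR2-/- cells were below WT in Lgals3 (909 against 1214, 0.749), Lgals1 (547 against 878, 0.623) and Anxa1 (77.7 against 184, 0.423). Lgals1 was thus lower in CCR2-/- cells in both clusters, while Lgals3 and Anxa1 had opposite directions. Sub-clusters of Mφ-like cells were shared unequally between genotypes at 24 h. The sub-cluster led by Ppbp and Pf4 had 358 WT and 26 CCR2-/- cells, and that led by Fabp4 59 and 74. With libraries pooled these held 2288 and 3890 CPM of Lgals3 and 233 and 360 CPM of Anxa4. The part of this mix in the Ppbp-led ratios was not tested. In the cells led by Lilra5, Mmp13 and Vcam1, 2 Anxa1 UMIs were counted in CCR2-/- and 19 in WT cells (2.56 against 69.0 CPM), a ratio of 0.0556 with a counting interval of 0.0105 to 0.189 after the lower count was set to the floor of 3.

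At 72 h the CCR2-/- Mφ-like pool of 147 cells held 70 cells of a sub-cluster led by Igkc, Igha and Jchain and by genes of dividing cells, of which WT had 38 among 867. Markers of dividing cells summed to 1108 CPM in that pool against 107 in WT, with 6 of 6 at or above 20 CPM against 1 of 6, and markers of B cells to 652 against 37.5 CPM. Without that sub-cluster the CCR2-/- to WT ratios at 72 h went on the log2 scale from 0.64 to 1.70 for Anxa2, from 0.14 to 1.25 for Anxa1 and from 0.00 to 0.71 for Lgals3, so that Anxa1 and Anxa2 passed 2-fold. Lgals1 moved from 0.50 to 0.38. Anxa2 was also 2.60 times higher (2.30 to 2.94) in CCR2-/- than in WT cells of the cluster led by Cxcl13, Retnla and Saa3, with 2701 against 1038 CPM. The sub-cluster led by Cxcl13 had a median of 3445 UMIs per cell and the part of depth in these levels was not tested. At 72 h it held 35 CCR2-/- and 27 WT cells, while the Mφ-like sub-cluster led by Retnla held 4 and 120. With libraries pooled, Anxa2 was at 1633 CPM in the Cxcl13-led and 1079 in the Retnla-led sub-cluster. The part of this mix in the 2.60-fold difference was not tested.

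**Figure D2:**
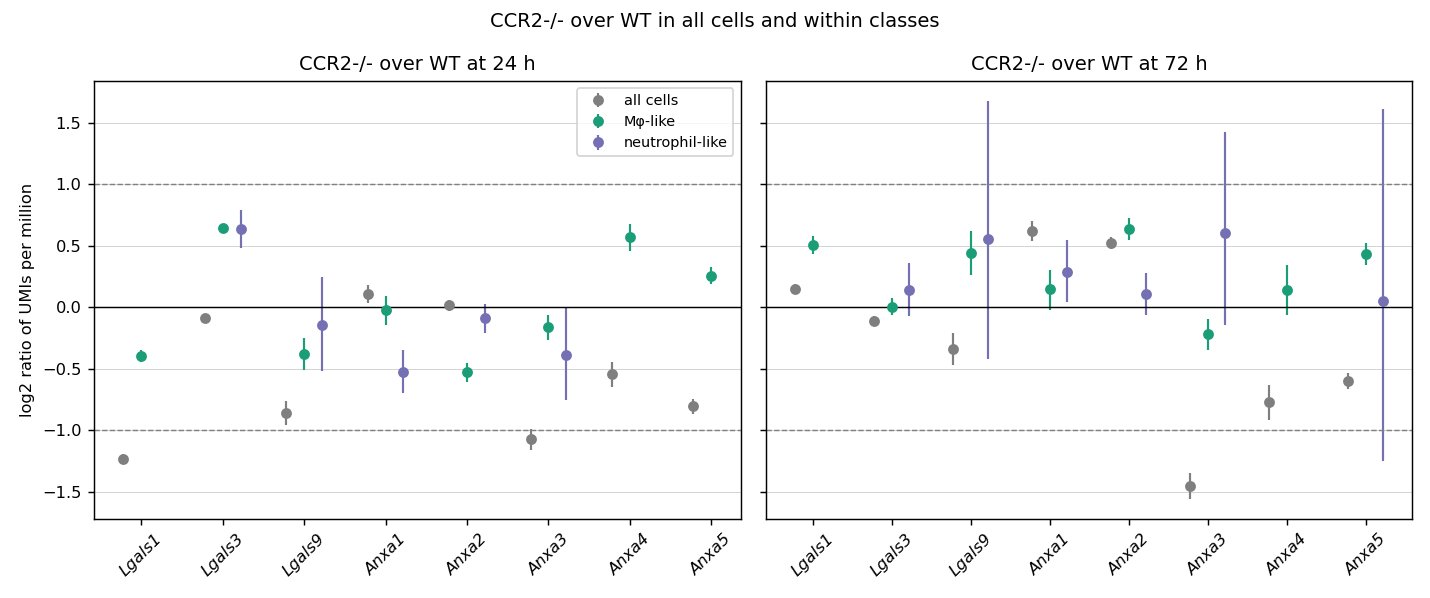
Log2 ratio of CCR2-/- over WT for each gene at 24 h and 72 h, over all cells and within Mφ-like and neutrophil-like cells, with exact 95% counting intervals; dashed lines mark 2-fold and only genes past the filter on low values are drawn. At 24 h the all-cell points of Lgals1 (0.425) and Anxa3 (0.475) lie past the line while all points within classes lie inside it.

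Time was compared within each genotype next. In WT Mφ-like cells 6 of the 8 genes were lower at 72 h than at 24 h by at least 1.19 times. Of all genes tested, 35.9% had a lower ratio than Anxa1, the gene at that limit. Lgals1 had the largest fall of the 8, from 1394 to 676 CPM (ratio 0.485, 0.473 to 0.497). Lgals3 went from 1691 to 948 (0.561), Lgals9 from 191 to 114 (0.594), Anxa4 from 161 to 106 (0.658), Anxa2 from 590 to 411 (0.696) and Anxa1 from 196 to 164 (0.837). Anxa5 stood at 0.912 and Anxa3 at 1.15 (1.1 to 1.2). Lgals1 was the single member past 2-fold, where 13.6% of genes tested were, and the median log2 ratio of the members was -0.56 beside -0.05 over all genes. Most WT cells at 24 h lay in other clusters than at 72 h, as listed above. In the cluster led by Apoe, Gal and Ms4a7 Lgals1 was even (664 against 651 CPM, 1.02, 0.880 to 1.19), and in that led by Cxcl13, Retnla and Saa3 it was 0.702 (0.646 to 0.763). WT cells of the sub-cluster led by Cxcl13 were 64 at 24 h and 27 at 72 h, and of that led by Retnla 0 and 120. Their part in the ratio of 0.702 was not tested.

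In CCR2-/- Mφ-like cells Lgals3 fell from 2648 to 951 CPM (ratio 0.359, 0.342 to 0.377) and Anxa4 from 239 to 117 (0.489, 0.422 to 0.564). These 2 of 8 were past 2-fold, where 15.6% of genes tested were. Anxa2 went the other way, from 409 to 638 (1.56, 1.45 to 1.68), and Lgals1 stood at 0.908 times its 24 h level (0.859 to 0.959). Without the sub-cluster of dividing cells the log2 ratio of Lgals3 was -0.74 and of Anxa4 -0.70, both inside 2-fold, while Anxa2 (1.72) and Anxa1 (1.04) were past it. Anxa4 was close to the 2-fold line, and with the mean over cells its log2 ratio was -0.77 in place of -1.03. In the cluster led by Lilra5, Mmp13 and Vcam1, Lgals3 was lower at 72 h in both genotypes, from 2114 to 531 CPM in CCR2-/- (0.251, 0.230 to 0.274) and from 2078 to 354 in WT (0.17, 0.147 to 0.198). Anxa2 in that cluster went from 58.8 to 190 CPM in CCR2-/- cells (3.23, 2.36 to 4.52) and from 109 to 147 in WT cells (1.35, 0.890 to 2.09). Other cells made up the class at 72 h, however: the Mmp13-led sub-cluster had 48 CCR2-/- cells at 24 h and 7 at 72 h, and the Igkc-led sub-cluster of dividing cells 1 and 70. In WT mice these were 24 and 43, and 4 and 38. Within the Mmp13-led sub-cluster of WT mice Lgals3 went from 2132 to 354 CPM (0.166, 0.139 to 0.197) and Anxa2 from 129 to 60.4 (0.468, 0.276 to 0.787), so that Anxa2 there was lower at 72 h, and 7 CCR2-/- cells gave no ratio.

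In neutrophil-like cells, 5 or 6 of the 8 genes passed the filter on low values, and none was past 2-fold between genotypes at 24 h (8.93% of genes tested were) or at 72 h (8.06%). At 24 h Lgals3 was higher in CCR2-/- mice (811 against 521 CPM, 1.56, 1.40 to 1.73) and Anxa1 lower (331 against 476, 0.696, 0.618 to 0.785). Anxa2 (0.939, 0.866 to 1.02) and Lgals9 (0.903, 0.698 to 1.18) were within counting error of even. At 72 h Anxa1 was higher in CCR2-/- mice (761 against 623, 1.22, 1.03 to 1.46), opposite to 24 h, and Lgals3 was at 1.1 (0.95 to 1.28). The WT pool at 72 h held 87 cells and 250249 UMIs, so that a ratio such as that of Lgals9 (1.46, 0.749 to 3.20) could not be resolved at this depth. The Lgals3 difference at 24 h was found in the cluster led by Mreg, Il1f9 and Ccl3 (1313 against 614 CPM, 2.14, 1.82 to 2.53), not in that led by Retnlg, Ly6g and Wfdc21 (1.03, 0.831 to 1.28) or by Cxcr2, Id1 and Cpeb2 (0.810, 0.629 to 1.06), and in the one led by Rsad2, Ifit3 and Ifit3b the ratio was 1.47 (0.979 to 2.31, 596 against 405 CPM).

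From 24 h to 72 h the levels of Anxa1 and Anxa2 went up in neutrophil-like cells of both genotypes, past 2-fold for Anxa1 in CCR2-/- mice, but in WT mice both directions turned when the Siglecf-led cluster was counted as neutrophil-like (log2 ratios of -0.27 for Anxa1 and -0.04 for Anxa2). Anxa1 went from 331 to 761 CPM in CCR2-/- mice (2.30, 2.11 to 2.50) and from 476 to 623 in WT mice (1.31, with an interval of 1.08 to 1.58). Anxa2 went from 894 to 1441 (1.61, 1.52 to 1.71) and from 951 to 1339 (1.41, 1.23 to 1.61). Anxa1 was the 1 of 6 members past 2-fold in CCR2-/- cells, where 11.4% of genes tested were; in WT cells 1 of 5 was, Lgals9, which fell from 96.6 to 40.0 CPM (71 and 10 UMIs, ratio 0.414, 0.190 to 0.806), where 15.3% were. Lgals9 was lower at 72 h in CCR2-/- cells as well (87.2 to 58.5, 0.671, 0.508 to 0.875). The CCR2-/- log2 ratio of Anxa1 was 1.2, and it was no longer past 2-fold when each cell was gated singly (0.88) or when the Siglecf-led cluster was counted as neutrophil-like (0.65).

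Neutrophil-like cells fell into 4 clusters with unequal Anxa1, at 988 CPM (936 to 1043, libraries pooled) in the cluster led by Retnlg, Ly6g and Wfdc21, 310 in that led by Cxcr2, Id1 and Cpeb2, 258 in that led by Mreg, Il1f9 and Ccl3 and 316 in that led by Rsad2, Ifit3 and Ifit3b. The Retnlg-led cluster held 105 of 1294 neutrophil-like cells in CCR2-/- mice at 24 h and 87 of 227 at 72 h, and 53 of 299 and 24 of 87 in WT mice. Within it Anxa1 went from 851 to 1146 CPM in CCR2-/- (1.35, 1.19 to 1.53) and from 963 to 789 in WT cells (0.819, 0.613 to 1.08). In the Cxcr2-led cluster it went from 244 to 544 in CCR2-/- (2.23, 1.78 to 2.78) and from 293 to 691 in WT cells (2.36, 1.65 to 3.39), and in the Mreg-led cluster the CCR2-/- ratio was 1.12 (0.893 to 1.40). Summed neutrophil markers went in the same CCR2-/- pools from 74080 to 173190 CPM, with 11 of 11 detected at both times, and stood at 120647 and 113131 in WT pools. Their part in the Anxa1 result was not tested. Lgals3 was divided differently, with 1272 CPM in the Mreg-led, 633 in the Retnlg-led, 567 in the Rsad2-led and 373 in the Cxcr2-led cluster, and Lgals9 was highest in the Rsad2-led cluster, whose leading genes are induced by interferon (187 CPM, 155 to 223, against 57.0 to 80.1).

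**Figure D3:**
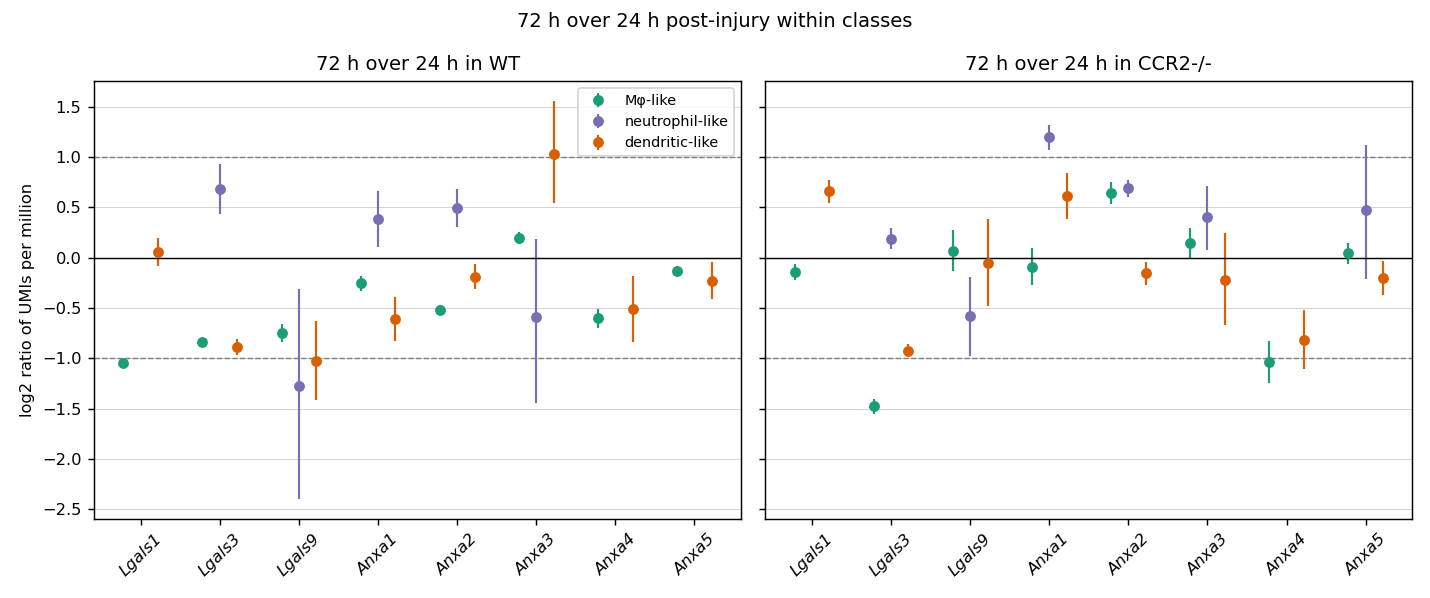
Log2 ratio of 72 h over 24 h for each gene in WT and CCR2-/- mice, within Mφ-like, neutrophil-like and dendritic-like cells, with exact 95% counting intervals; dashed lines mark 2-fold. Lgals3 lies below even in Mφ-like and dendritic-like cells of both genotypes and above it in neutrophil-like cells of both, where the CCR2-/- log2 ratio turned from 0.19 to -0.18 when the Siglecf-led cluster was counted as neutrophil-like.

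In dendritic-like cells Lgals3 was lower at 72 h in both genotypes, going from 2044 to 1102 CPM in WT (0.539, 0.510 to 0.570) and from 2286 to 1206 in CCR2-/- mice (0.528, 0.504 to 0.552). The sub-clusters differed between the times: cells led by S100a8, with 2208 CPM of Lgals3 and 98.2 of Lgals9, were 27 of 62 dendritic-like cells in WT at 24 h and 3 of 153 at 72 h, and cells led by Retnla 1 and 58. Their part in the change with time was not tested. Past 2-fold in WT were Lgals9, lower at 72 h (91.1 to 44.7, 0.491, 0.374 to 0.645), and Anxa3, higher (38.0 to 77.8, 2.05, 1.46 to 2.94), 2 of 8 members where 7.63% of genes tested were. No member was past 2-fold with time in CCR2-/- mice (7.26%) or between genotypes at 24 h (7.36%). At 72 h 1 member was, Anxa3, at 77.8 CPM in WT and 37.4 in CCR2-/- mice (0.481, 0.387 to 0.595; 4.47% of genes). Lgals1 was higher in CCR2-/- mice at 72 h (875 against 585, 1.49, 1.41 to 1.59), and in the cluster led by Ccl17, Cd209a and Ccl22 it was at 1141 against 519 CPM (2.20, 2.02 to 2.40).

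Among 10 sub-clusters of the dendritic-like cells, with libraries pooled, some members covered a wide range. The members were left out of the genes used for clustering, and the levels are a description. Anxa3 was at 203 CPM (175 to 235) in the cells named by Ccr7, Fscn1 and Ccl22, the migratory kind, at 4.88 in those named by Xcr1 and Clec9a, the cross-presenting kind, and at 0 (upper limit 9.27) in 24 cells led by Ly6d and Siglech. Anxa1 had another order, at 361 CPM in the Xcr1-named cells, 37.6 in the Ccr7-named cells and 10.0 in the Siglech-led cells. Lgals1 peaked in the Siglech-led cells (1839 CPM, 1708 to 1977) and was lowest in the Ccr7-named cells (425, 384 to 470). The 2 libraries at 72 h drew on different sub-clusters, with 58 cells led by Retnla in WT against 1 in CCR2-/- mice and 3 against 14 Siglech-led cells.

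The cluster led by Siglecf, a receptor known from eosinophils, had 8 and 43 cells at 24 h and 105 (WT) and 364 (CCR2-/-) cells at 72 h. At or above 20 CPM were 1 of 4 eosinophil markers and 8 or 9 of 11 neutrophil markers in each library. At 72 h the neutrophil markers summed to 27796 (WT) and 25148 CPM (CCR2-/-), and the eosinophil markers to 699 and 557 CPM. As in neutrophil-like cells, Lgals1 (17.5 and 10.5 CPM at 72 h, 4 and 12 UMIs) and Anxa4 (4.37 and 6.13 CPM) were low. Between genotypes at 72 h the CCR2-/- level was higher for Lgals9 (64.8 against 21.9 CPM, 74 and 5 UMIs, ratio 2.96, 1.21 to 9.40), Anxa1 (261 against 136, 1.93, 1.33 to 2.89), Lgals3 (475 against 262, 1.81, 1.38 to 2.40) and Anxa2 (765 against 477, 1.61, 1.31 to 1.98). Lgals9 was the 1 of 6 members past 2-fold, where 8.47% of genes tested were. Median depth was 2181 UMIs in WT and 3009 in CCR2-/- cells.

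Among Mφ-like cells, 13 sub-clusters were compared with the 4 libraries pooled. Several of them came mostly from 1 library, so that sub-cluster and library cannot be told apart there. The members were left out of the genes used for clustering, and these levels are a description. By fold Anxa2 had the widest range, from 65.5 CPM (53.4 to 79.5) in cells named by Cx3cr1 and led by Mmp13 and Ch25h to 1633 (1552 to 1718) in those led by Cxcl13, with 1159 in Ly6c monocyte-like cells led by Ly6c2 and 1079 in Timp2-like cells led by Retnla. Anxa1 was ordered alike, from 23.8 CPM in the Mmp13-led to 387 in the Ly6c2-led cells, and the neighbours Cxcl13-led (370) and Fabp4-led (353) did not differ from the highest beyond counting error. The larger sub-cluster named as Ly6c monocyte-like, 402 cells led by Cxcl9 and Cxcl10, held only 328 CPM of Anxa2 and 145 CPM of Anxa1. Cd206-like cells led by Gal, Ms4a7 and Apoe, 374 of the 867 WT cells at 72 h, held 185 CPM of Anxa2 and 99.8 CPM of Anxa1.

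The galectins peaked elsewhere. Lgals1 reached 2247 CPM (2210 to 2284) in cells led by Ppbp, Pf4 and Fabp5, where it ranked 7th by fold among their leading genes, then 1370 in those led by Fabp4, Inhba and Cxcl3, and it was lowest in the Mmp13-led cells (557). The study itself lists Lgals1 among the genes of a macrophage group marked by Fabp5, so this place is not independent of it. Lgals3 was highest in the Fabp4-led cells (3890 CPM, 3811 to 3971), followed by the Ppbp-led (2288) and Ly6c2-led cells (1990), and lowest in the Igkc-led cells with genes of division (578). Anxa4 (360) and Anxa5 (766) were also highest in the Fabp4-led cells, with Ppbp-led cells next (233 and 654). These Fabp4-led cells came from the 24 h libraries, 59 from WT and 74 from CCR2-/- mice against 3 and 0 at 72 h, and there the genotypes were close, with 3766 and 3987 CPM of Lgals3 and 317 and 389 CPM of Anxa4. Lgals9 ranged from 95.3 to 229 CPM and Anxa3 from 156 to 422, the narrowest ranges with that of Anxa5.

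Likeness between genes was described over 15 pools of a class and a library with at least 50 cells, as Pearson correlation of log2(CPM + 10) among 5608 genes; the pools share libraries and classes, so no p is given. Anxa4 and Anxa5 went together (0.963), as did Lgals1 and Anxa5 (0.914) and Anxa1 and Anxa2 (0.895), whereas Lgals1 and Anxa2 were opposed (-0.73). Over all genes those most alike were Selenow (0.988), Capn2 and Ddx1 for Lgals1, Ctsz (0.943), Cd68 and Ifitm3 for Lgals3, and Cept1 (0.892), Rnf213 and Plod1 for Lgals9. For the annexins they were Pira2 (0.937), Trpm2 and Gpr35 for Anxa1, Gm14548 (0.926), Lilra6 and A530064D06Rik for Anxa2, Lyz2 (0.947), Wdfy3 and Csf1r for Anxa3, Dusp3, Rrbp1 and Cmtm3 (0.979 each) for Anxa4, and Snx5 (0.985), Cmtm3 and Scpep1 for Anxa5.

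Genes that work with these families were counted in the same way. Of the S100 partners of annexins (S100a4, S100a6, S100a10, S100a11), 0 of 4 tested were past 2-fold in Mφ-like cells between genotypes at either time. Of all genes tested, 4.17% at 24 h and 8.29% at 72 h were. The S100 partners had a median log2 ratio of -0.75 at 24 h, when S100a10 stood at 484 CPM in CCR2-/- and 850 in WT cells. Of plasmin formation genes, 3 of 3 tested were higher in CCR2-/- Mφ-like cells at 24 h, where 2.84% of all genes tested were: Plau, the urokinase activator (54.6 against 12.0 CPM, 4.56, 3.75 to 5.54), Serpinb2, its inhibitor (57.3 against 15.3, 3.76), and Plaur, its receptor (552 against 153, 3.60). At 72 h 1 of 2 was, Plau (29.7 against 12.2, 2.44), where 5.53% of all genes tested were. Between the times Plaur fell in WT Mφ-like cells from 153 to 75.4 CPM (0.492), 1 of 1 tested, where 6.69% of all genes were lower by at least 2-fold. In CCR2-/- cells Plaur fell from 552 to 92.9 (0.168) and Serpinb2 from 57.3 to 13.1 (0.229), 2 of 3 tested, where 5.03% of all genes were. Anxa2 itself was lower in CCR2-/- cells at 24 h, as given above. Plaur was also higher in CCR2-/- neutrophil-like cells at 24 h (820 against 350, 2.35), 1 of 1 tested, where 6.56% of all genes were.

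Of receptors and ligands, 2 of 8 tested in Mφ-like cells were lower in CCR2-/- mice at 24 h, where 1.33% of all genes tested were: Fpr1 (17.6 against 75.4 CPM, 0.233) and Fpr2 (30.4 against 63.4, 0.481), the formyl peptide receptors through which Anxa1 acts. Both were also lower in CCR2-/- neutrophil-like cells at 24 h, Fpr1 at 276 against 614 (0.450, 0.403 to 0.502) and Fpr2 at 281 against 687 (0.409, 0.368 to 0.455), while Havcr2 was higher (29.8 against 9.53, 3.13, 1.47 to 7.95), which made 3 of 6 tested past 2-fold, beside 8.93% of all genes. In WT Mφ-like cells Fpr1 and Fpr2 fell with time to 11.4 and 15.1 CPM, 2 of 7 tested, where 6.69% of all genes were lower by at least 2-fold. At 72 h 0 of 6 receptors and ligands were past 2-fold between genotypes in Mφ-like cells, beside 8.29% of all genes. Of genes induced by glucocorticoids, Sgk1 was higher in CCR2-/- Mφ-like cells at 24 h (96.3 against 32.1, 3.0), 1 of 4 tested, where 2.84% of all genes tested were. Klf9 was lower there at 72 h (7.78 against 22.8, 0.341), 1 of 5, where 2.76% of all genes were. Tsc22d3 was higher at 72 h than at 24 h in WT (248 against 97.9, 2.54) and CCR2-/- Mφ-like cells (156 against 76.8, 2.03). It was 1 of 5 tested in WT and 1 of 4 in CCR2-/- cells, where 6.96% and 10.5% of all genes were higher by at least 2-fold. Of the other annexins and galectins tested, 0 of 3 and 0 of 1 were past 2-fold between genotypes at 24 h in Mφ-like cells, beside 4.17% of all genes. In neutrophil-like cells of CCR2-/- mice S100a6 rose from 3462 to 9992 CPM between the times (2.89, 2.82 to 2.96). It was 1 of 3 S100 partners tested, where 4.18% of all genes were higher by at least 2-fold.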

How the data were processed

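Single cell 3′ RNA libraries of CD45+ cells were made by the authors with the 10x Genomics v3 chemistry and read with Cell Ranger 3.0.2 on mm10; the deposited values are raw UMI counts per gene and cell, from which cells under 200 genes or over 10% mitochondrial UMIs had been removed by the authors. Counts of all 4 tables were used as deposited, with no column left unused. Members and gene lists were chosen with earlier results of these data known. Cells were normalised to 10000 UMIs, log-transformed, reduced to 2000 variable genes and 30 components, and clustered by the Leiden method (20 neighbours, resolution 1, scanpy 1.11.5, leidenalg 0.10.2, Python 3.11.15). All galectin and annexin genes, the genes that work with them listed above, and Ccr2 were left out before the variable genes were chosen. A cluster was named from a marker list when its score reached 0.6 (0.75 for sub-clusters), at least 3 markers were detected and its 10 leading genes did not go against the name. Removal of doublets before deposit is not given in the sources used here; Scrublet called 10 of 5811 cells (0.172%), which was taken as a failed call, so doublets were kept and the highest-scoring 5% of each library left out as an alternative.

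UMIs were summed per class and library, the pools being the samples, with 1 per group. Each group was mapped by the strain and day in its labels. Ratios are of pooled CPM with exact conditional 95% intervals, levels have exact Poisson intervals and shares of cells exact binomial ones, all for counting error only; molecules were counted by UMI. Counts under 3 were set to 3 for a ratio. Without replicates no test or p-value was given, and the spread between animals is unknown. A gene entered a comparison with at least 20 CPM in 1 pool and 20 UMIs over both, and a ratio of at least 2 or at most 0.5 counted as past 2-fold. Shares of cells were taken after thinning to 1000 UMIs, leaving out 127 shallower cells. Named were the 8 members, up to 4 genes of a partner list past 2-fold with the largest ratio, and the 3 genes most alike each member among those reaching 50 CPM; S100a10 and some values within clusters were chosen after they were seen. Scripts were tested on simulated data. Alternatives covered scaling (TMM in edgeR 4.0.16, size factors in DESeq2 1.42.0, R 4.3.3), filters, pseudocount, mitochondrial limit, doublets, depth, clustering, gating and fold. Gene positions came from GENCODE M21, in which 16133 of 16308 symbols were found. Proteins were not analysed here, and promoters of Lgals1 and Anxa3 were not used here.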

Additional observations from a re-analysis of the deposited data

Results flagged for a closer look

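In Mφ-like cells the genotype difference had opposite signs at the 2 times for 3 genes, on the log2 scale of CCR2-/- over WT: -0.40 at 24 h and 0.50 at 72 h for Lgals1, -0.38 and 0.44 for Lgals9, and -0.53 and 0.64 for Anxa2. In neutrophil-like cells the same held for Anxa1, at -0.52 and 0.29. With 1 library per group the difference between the times was not tested.

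The 11 cells set aside for non-immune markers held Lgals1 at 4609 CPM (582 of 126271 UMIs, in 7 of the 11 cells), above the level of every leukocyte class in the 4 libraries. They came from the CCR2-/- libraries and enter no comparison.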

How the results depend on the processing

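No paired analysis was possible because each group had 1 library. Over 54 ratios of a member in Mφ-like or neutrophil-like cells, 718 values were obtained under alternatives, of which 675 kept their sign, 43 turned (in 16 ratios) and 19 moved by over 1.5-fold. The number of members past 2-fold in Mφ-like cells, 0 between genotypes at 24 h, became 1 after thinning (Anxa1, lower) and 1 at a fold of 1.5 (Lgals3). At 72 h, also 0, it became 1 with the mean over cells, 1 at a mitochondrial limit of 5%, 1 at a fold of 1.5 (Anxa2 each time) and 2 without dividing cells (Anxa1 and Anxa2); the log2 ratio of Anxa2 ranged from 0.32 to 1.70. For time in WT it went from 1 to 4 at a fold of 1.5 (Lgals1, Lgals3, Lgals9, Anxa4). For time in CCR2-/- mice it went from 2 to 1 with the mean over cells, a pseudocount of 10 CPM, resolution 2 or gating of each cell on its own (Lgals3 kept each time), and to 1 at the mitochondrial limit of 5% (Anxa2, higher). That limit left 50 of 147 Mφ-like cells in CCR2-/- mice at 72 h and 563 of 867 in WT mice. At 24 h it left 183 of 219 and 1021 of 1277, so the pools lost cells unevenly.

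In neutrophil-like cells the count between genotypes at 24 h went from 0 to 1 without the filter (Lgals1), to 2 when libraries were clustered separately or cells gated singly (Lgals1 and Anxa5) and to 1 at a fold of 1.5 (Lgals3). At 72 h it went from 0 to 2 without the filter (Lgals1, Anxa4), to 1 by gating (Anxa5) and to 1 at a fold of 1.5 (Anxa3). For time in WT it went from 1 to 2 without the filter or with own clustering, to 3 by gating (Lgals1, Lgals9, Anxa3) and to 3 at a fold of 1.5. For time in CCR2-/- mice it went from 1 to 2 after thinning (Lgals9, Anxa1), to 0 by gating, to 2 at a fold of 1.5 (Anxa1, Anxa2) and to 0 with the Siglecf-led cluster counted as neutrophil-like, an alternative chosen after seeing the data (log2 ratio of Anxa1 0.65). The cause was not tested for any of these. Scaling by TMM or size factors and removal of doublets changed none of these counts. Clustering each library on its own named no Mφ-like cells in WT at 24 h, so it gave no value there. Depth limits the WT pools at 72 h of neutrophil-like (250249 UMIs) and Siglecf-led cells (228736 UMIs).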
